A study of Mus musculus with 12 samples.

Results

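The sequences described here are small RNA fragments of the mouse mitochondrial genome (mtDNA) whose 5′ end is base 1 of the 16S ribosomal RNA (16S rRNA). A sequence was counted as a member when it matched the forward strand of the mtDNA of GRCm39 (16299 bp) with 0 mismatches and its 5′ end was the first base of mt-Rnr2, the 16S gene, which follows position 1093. There were 20 such sequences among the 204 unique sequences listed in the 12 libraries, 159 of which matched the mtDNA exactly. They held 113114 of the 403352 deposited reads (28.04%).

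The 16S rRNA is the RNA core of the large subunit of the mitochondrial ribosome. It is transcribed as part of a long precursor in which tRNAs sit between the rRNAs and the coding genes, and the ends of the rRNAs are set free when the flanking tRNAs are cut out by RNase P at their 5′ side and by RNase Z (ELAC2) at their 3′ side. PiRNAs are small RNAs bound by PIWI proteins that silence transposons in the germ line, and most of them carry either a U at base 1 or an A at base 10. The study asked which sequences listed as piRNAs derive from the mtDNA (mito-piRNAs) in primordial germ cells (PGCs), the embryonic precursors of the gametes, and in the somatic cells (SCs) of the same gonads.

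Gonads were taken from female and male embryos of CD1 mice, an outbred strain, on embryonic days E11.5, E12.5 and E13.5, pooled over litters, and divided into a PGC and an SC fraction by magnetic beads that bind CD15, a surface antigen of PGCs. The authors checked the purity of both fractions by staining. A list of mitochondrial small RNAs holds no marker transcripts by which the labelled cell type could be checked again. Each of the 12 combinations of cell type, sex and day is 1 library, here named as PGC11F (PGCs, E11.5, female) to SC13M (SCs, E13.5, male), so no condition has a replicate and the spread can be taken only over libraries that differ in the other factors. No genotype or treatment separates the groups.

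The junction is shown first because it locates the common 5′ end. The forward strand of GRCm39 at MT:1073-1128 is printed with the end of the gene of tRNA-Val (mt-Tv, 1025 to 1093) in lower case and the first bases of the 16S rRNA (mt-Rnr2, which ends at 2675) in capitals, all of it transcribed and none of it coding for protein.
junction: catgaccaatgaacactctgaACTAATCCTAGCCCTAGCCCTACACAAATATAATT

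The members are the first 16 to 35 bases of the capital stretch, 1 sequence for every length, so each differs from the next only by its 3′ end. Printed below are the shortest and the longest member, the 5 members with most reads (23, 34, 29, 35 and 25 nt) and the 24-nt member, with the last base in capitals because only that end varies.
16 nt: actaatcctagccctA
23 nt: actaatcctagccctagccctaC
24 nt: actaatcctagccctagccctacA
25 nt: actaatcctagccctagccctacaC
29 nt: actaatcctagccctagccctacacaaaT
34 nt: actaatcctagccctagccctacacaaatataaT
35 nt: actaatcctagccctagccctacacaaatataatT

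In the mtDNA these end at positions 1109, 1116, 1117, 1118, 1122, 1127 and 1128. The first base is an A and not the U typical of piRNAs, and base 10 is an A. The unit CCTAGC lies at bases 7 to 12 and again at bases 13 to 18. Of bases 1 to 25, 52% are G or C, whereas bases 26 to 35 hold 0% G or C, so every base that a longer member has beyond the 25-nt one is A or T.

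Among the listed sequences, the 5′ end was sharply placed. Sequences outside the authors' piRNA database or below their abundance limit are not listed, so other starts are not shown to be absent. No exact sense sequence with another start was listed within 10 bases of this position, and 5 were listed within 100 bases. Only 1 sequence, which has 1 mismatch, crossed the junction with tRNA-Val, and 0 sequences lay on the reverse strand over the members. The 20 members made up 77.5% of the reads among the 75 exact sense sequences of the 16S rRNA.

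A library that stood apart has to be described before the values. In PGC13F the members had other lengths than in the remaining 11 libraries. There were 7 members (16, 17, 22, 24, 28, 30 and 33 nt) listed only in PGC13F, 6 of which end in A, and 5 members (20, 21, 23, 25 and 27 nt) were missing from it. The other 11 libraries listed 13 lengths in all, and 10 of them (18, 19, 20, 21, 23, 25, 29, 31, 34 and 35 nt) were present in every one of the 11, with 97.9% of their member reads. Only 6 lengths (18, 19, 29, 31, 34 and 35 nt) were listed in all 12 libraries.

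The last base of the reads moved with this difference. Reads ending in A made up 40.6% of the member reads of PGC13F and between 0% and 4.49% in the other 11 libraries, and reads ending in C made up 9.97% against 38.8% to 59.2%. The exact sequences with other 5′ ends showed the same split, with 38.6% ending in A in PGC13F against 3.30% to 9.50% elsewhere. In the other 11 libraries the 3 members ending in A (26, 27 and 32 nt) are each followed by another A in the mtDNA, as are 9 of the 9 exact sequences with other starts that end in A. In PGC13F, 6 of its 8 members ending in A are followed by a different base. The methods of the study give, for all libraries, adapter trimming with a minimum overlap of a single base and an adapter that starts with A, a setting that can also remove a genuine terminal A. Its part in the missing lengths was not tested. The tests of single lengths are therefore given with and without PGC13F.

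When lengths were pooled in the 4 classes below, PGC13F lay within the range of the other libraries, but with the limit set at 24 nt it did not (64.9% of 24 nt or more, others 41.7% to 59.6%). Members of 16 to 21 nt held 23.8% of its member reads (others 18.7% to 28.1%), those of 22 to 28 nt 34.7% (30.3% to 48.6%), those of 29 to 33 nt 17.6% (10.5% to 19.0%) and those of 34 to 35 nt 23.9% (12.7% to 33.3%).

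The 20 members were unequally abundant. The 23-nt member held 23687 reads (20.9% of the member reads), the 34-nt member 15254 (13.49%), the 29-nt member 13537 (12.0%), the 35-nt member 11113 (9.82%) and the 25-nt member 10915 (9.65%), together 65.9%. The 23-nt member was the most abundant member in 11 of the 12 libraries, the exception being PGC13F, where the 24-nt member led with 2461 reads. The 16-nt member was the rarest of the 7 listed only in PGC13F, with 144 reads.

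Levels are given as reads per 1000000 reads of the library (rpm), with the totals taken from the study because a file lists only part of a library. Those totals count the reads of sequences over 10 CPM and not all reads, so rpm is higher than CPM by a factor that differs between libraries, and the lowest count listed came to 14.6 to 17.8 rpm. A sequence under 10 CPM (counts per 1000000 reads) in a library was not listed by the authors, so an unlisted member lies below that limit and is not shown to be absent. The lowest count listed in a library was 66 reads or more.

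Summed over the members, the level was 1003 rpm in PGC11F, 1196 rpm in PGC12F and 2577 rpm in PGC13F. In male PGCs it was 2369 rpm in PGC11M, 1178 rpm in PGC12M and 2993 rpm in PGC13M. In female SCs it was 993 rpm in SC11F, 670.1 rpm in SC12F and 1502 rpm in SC13F, and in male SCs 2484 rpm in SC11M, 1312 rpm in SC12M and 3200.4 rpm in SC13M. The highest total, in male SCs at E13.5, was 4.78-fold the lowest, in female SCs at E12.5, and the 4 libraries of E12.5 all lay below the 4 libraries of E13.5. At how many other 5′ ends this order of days held was not counted.

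The mean was 1790 ± 875 rpm (SD, n = 12 libraries). As a share of the mito-piRNA reads of a library, the members took 29.1% ± 9.59 (SD, n = 12), from 18.2% in SC13F (95% Wilson interval 17.9% to 18.6%) to 44.1% in PGC12F (43.4% to 44.9%). These intervals cover counting error only. The order by share was not the order by rpm, since SC13M, with the highest rpm, had a share of 24.4%.

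Matched by cell type and day, males had the higher total in 5 of 6 pairs, at 0.985-fold to 2.50-fold the female level. The exception was PGCs at E12.5, where both sexes were nearly level (1178 rpm in males and 1196 rpm in females). The ratio was 1.96 to 2.50 in the 3 SC pairs, 2.36 in PGCs at E11.5, and it was 1.16 in the pair that holds PGC13F. The mean was 2256 ± 843 rpm in males and 1324 ± 672 rpm in females (SD, n = 6 each), with overlapping ranges.

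To compare sexes, cell types and days within a fit across all 5′ ends, the reads of the exact sequences were summed for each of the 39 ends listed in at least 3 libraries and tested with edgeR's quasi-likelihood test in an additive model, which called 2.56% of the ends between sexes (5.13% at an unadjusted p under 0.05, and 10.8% of 37 ends without PGC13F). The 16S start was not called by adjusted p, although it was 1 of the ends under the unadjusted limit without PGC13F. Its log2 difference of males over females was 0.79 (SE 0.41, edgeR adjusted p = 0.430), and without PGC13F it was 0.89 (SE 0.28, edgeR adjusted p = 0.243), while under DESeq2 with its own size factors it was -0.46.

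By day, the total was higher at E13.5 than at E12.5 in 4 of 4 matched pairs, by 2.15-fold to 2.54-fold. Between E11.5 and E12.5 it was lower in 3 of 4 pairs, the exception being female PGCs, which were at 1.19-fold. With 4 libraries a day, the mean and SD were 1712 ± 826 rpm on E11.5, then 1089 ± 286 rpm on E12.5, and 2568 ± 757 rpm on E13.5 (n = 4).

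The test over the 3 days called 0.0% of the 39 ends by adjusted p, and 4 ends (10.3%; 5.41% of 37 ends without PGC13F) had an unadjusted p under 0.05, the 16S start among them. The log2 difference of E13.5 over E12.5 at the 16S start was 1.21 (edgeR adjusted p = 0.378 over the 3 days) and without PGC13F 1.04 (adjusted p = 0.338), while under DESeq2 with its own size factors it was -1.08. As a share of the mito-piRNA reads, the members were higher at E13.5 than at E12.5 in only 1 of 4 pairs. When the library sizes were the sums of the deposited mito-piRNA reads, the log2 difference was 0.01.

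Between cell types, SCs had the lower total in all 3 female pairs, at 0.560-fold to 0.991-fold the PGC level, and the higher in all 3 male pairs, at 1.05-fold to 1.11-fold. The mean was 1886 ± 860 rpm in PGCs and 1694 ± 961 rpm in SCs (SD, n = 6 each). The edgeR test called 2.56% of the 39 ends (5.13% at an unadjusted p under 0.05, and 5.41% of 37 ends without PGC13F), not the 16S start, at which the log2 difference of SCs over PGCs was -0.24 (SE 0.40, adjusted p = 0.982), against 0.24 under DESeq2 with its own size factors. In bulk fractions, a different share of contributing cells and a different level per cell cannot be told apart.

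The 23-nt member, which ends in C inside the GC-rich stretch, was at 245 rpm in PGC11F, 279 rpm in PGC12F, 560.5 rpm in PGC11M, 265 rpm in PGC12M and 706 rpm in PGC13M. In SCs it was at 248 rpm in SC11F, 202 rpm in SC12F, 333 rpm in SC13F, 588 rpm in SC11M, 339 rpm in SC12M and 695 rpm in SC13M, and it was not listed in PGC13F. It was high in the 4 male libraries of E11.5 and E13.5, from 560.5 to 706 rpm, and at 339 rpm or less in the others that list it. PGC13F cannot be placed in this order, and its 22-nt and 24-nt members were at 289 and 486 rpm. Among the libraries that list them, the 18-, 21-, 25-, 29- and 31-nt members were also highest in these 4 male libraries. The share of the 23-nt member in the member reads lay between 21.7% and 30.2% in the 11 libraries.

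The 25-nt member varied less in level, from 124 rpm in SC11F and 123 rpm in SC12F to 259 rpm in PGC13M. In the remaining libraries it was at 158 rpm in PGC11F, 219 rpm in PGC11M, 201 rpm in PGC12F, 186 rpm in PGC12M, 224 rpm in SC11M, 138 rpm in SC12M, 142 rpm in SC13F and 238 rpm in SC13M, and it was not listed in PGC13F. As a share of the member reads it ranged from 7.43% in SC13M to 18.4% in SC12F, the libraries with the longest and the shortest mean length.

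The 34-nt member, the second in reads, was at 97.6 rpm in PGC11F, 108 rpm in PGC12F, 369 rpm in PGC13F, 299.7 rpm in PGC11M, 77.4 rpm in PGC12M and 437 rpm in PGC13M. In SCs it was at 132 rpm in SC11F, 47.1 rpm in SC12F, 176 rpm in SC13F, 414 rpm in SC11M, 153 rpm in SC12M and 662 rpm in SC13M. The 4 libraries of E13.5 lay above the 4 libraries of E12.5 without overlap, as they did for the 19-, 29- and 35-nt members. Of the sequences tested over days, 0.0% were called, and how many others did not overlap was not counted. The share of the 34-nt member in the member reads ran from 6.57% in PGC12M to 20.7% in SC13M.

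The 35-nt member, 1 base longer, was at 93.8 rpm in PGC11F, 102 rpm in PGC12F, 247 rpm in PGC13F, 223 rpm in PGC11M, 98.9 rpm in PGC12M and 301 rpm in PGC13M. In SCs it was at 91.2 rpm in SC11F, 38.3 rpm in SC12F, 147 rpm in SC13F, 271 rpm in SC11M, 117 rpm in SC12M and 405 rpm in SC13M. It was below the 34-nt member in 11 of the 12 libraries, with a ratio of 34 nt to 35 nt between 0.783 in PGC12M and 1.64 in SC13M.

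The 29-nt member was at 119 rpm in PGC11F, 146 rpm in PGC12F, 279.9 rpm in PGC13F, 290.2 rpm in PGC11M, 166 rpm in PGC12M and 366 rpm in PGC13M. In SCs it was at 108 rpm in SC11F, 56.0 rpm in SC12F, 214 rpm in SC13F, 291 rpm in SC11M, 150.2 rpm in SC12M and 377 rpm in SC13M. Its share of the member reads kept to a narrower range than that of the 34-nt member, from 8.36% in SC12F to 14.2% in SC13F.

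Of the other members, the 18-nt one ran from 22.1 rpm in SC12F to 341 rpm in PGC13M, the 19-nt one from 17.4 rpm in SC12F to 191 rpm in PGC13F, and the 31-nt one from 14.7 rpm in SC12F to 133 rpm in SC13M. Outside PGC13F, the 20-nt member lay between 29.4 and 61.3 rpm and the 21-nt member between 117 and 292 rpm. The 27-nt member was listed in 8 libraries and the 32-nt member in 5, the latter at 17.1 rpm in PGC11M, 37.2 rpm in PGC13F, 18.8 rpm in PGC13M, 19.3 rpm in SC11M and 52.5 rpm in SC13M. In PGC13F the members listed nowhere else ran from 28.5 rpm (16 nt) to 486 rpm (24 nt).

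The 26-nt member, named after its values were seen, was listed in 5 of 6 PGC libraries and in 0 of 6 SC libraries. It was at 17.1 rpm in PGC11M, 18.6 rpm in PGC12F, 28.2 rpm in PGC12M, 72.3 rpm in PGC13F and 28.4 rpm in PGC13M. Apart from PGC13F these levels are close to the lowest that the files list, and SC libraries could hold it under the 10 CPM limit, so no fold is given.

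Sequence by sequence, 83 exact sequences listed in at least 3 libraries were tested with edgeR, 13 of them members, and the 7 members listed only in PGC13F did not enter. In all 3 comparisons edgeR called 0 of 83 sequences (0.0%) at an adjusted p of 0.05. At an unadjusted p under 0.05 there were 6 of 83 (7.23%) between cell types, 6 of 83 (7.23%) between sexes and 2 of 83 (2.41%) over days, with 1 of the 13 members in each. Without PGC13F, 1 of 13 members (the 26-nt one) and 6.02% of the 83 sequences passed this limit between cell types, and 4 of 13 members (23, 29, 34 and 35 nt), which were all 4 of the 83 (4.82%), passed it over days. DESeq2 with its own size factors called 2 of 83 between cell types (2.41%), 1 of them the 26-nt member, and 0 of 83 between sexes and over days. The 26-nt member, also the 1 member counted between cell types at the unadjusted limit, entered the test only through PGC libraries, with its unlisted SC values taken as 0, so these counts restate where it is listed and are not evidence of a difference.

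Between sexes, 13 of 13 tested members had a higher fitted level in males (11 of 13 under DESeq2 with its own size factors), with a median log2 difference of 1.00, and the median over all 83 sequences was also 1.00. The 18-nt member, named after its values were seen, had the lowest p among the members, with a log2 difference of 1.54 (SE 0.58, edgeR adjusted p = 0.624), and 1.43 without PGC13F (SE 0.43, adjusted p = 0.192). Without PGC13F, 7 of 13 members and 15 of 83 sequences (18.1%) had an unadjusted p under 0.05, and the lowest adjusted p among members was 0.192. The 7 include the 32-nt member, which is then listed in 4 male and 0 female libraries and entered only through males, so its p restates where it is listed. Then the log2 difference was 0.85 for the 23-nt member, 0.94 for the 29-nt member (SE 0.28), 1.23 for the 34-nt member (SE 0.38) and 1.08 for the 35-nt member (SE 0.33). With all 12 libraries, DESeq2 with its own size factors gave 0.93 for the 18-nt member and 0.63 for the 23-nt member. It gave 0.24 for the 29-nt member, 0.40 for the 34-nt member and 0.33 for the 35-nt member. Its median was 0.33 over the 13 members against 0.35 over all 83 sequences. In edgeR with unlisted sequences raised to the smallest listed value, the medians were 0.80 and 0.23. The gap between members and all sequences thus depended on the handling of unlisted values.

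Over days, 12 of 13 tested members had a higher fitted level at E13.5 than at E12.5 (7 of 13 with the deposited sums as library sizes and 4 of 13 under DESeq2 with its own size factors), with a median log2 difference of 1.13 against 1.34 over all 83 sequences. Without PGC13F, 12 of 13 were again higher, with a median of 1.22 against 1.45. With unlisted sequences raised to the smallest listed value, the medians were 0.94 for the members and 0.45 for all 83. Which median was higher thus depended on the handling of unlisted values. The lower member was the 25-nt one with all libraries (-0.27) and the 26-nt one without PGC13F (-0.36). Both counts of 12 include the 32-nt member, which is listed in 0 libraries of E12.5, so its direction restates where it is listed. The 34-nt member had the lowest p among them, with a log2 difference of 2.01 (edgeR adjusted p = 0.653 over the 3 days), and 1.73 without PGC13F (adjusted p = 0.412), while under DESeq2 with its own size factors it was 0.51. The median of SCs over PGCs was -0.23 for the members and -0.02 for all 83, and without PGC13F -0.18 and -0.16.

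The ratio of E13.5 to E12.5 differed between members, a description that was not tested. In the 3 pairs without PGC13F, the 34-nt member was higher by 3.74-fold to 5.64-fold, the 35-nt member by 3.05-fold to 3.83-fold and the 29-nt member by 2.21-fold to 3.82-fold. The 23-nt member was higher by 1.65-fold to 2.66-fold, the 25-nt member by 1.15-fold to 1.73-fold and the 20-nt member by 1.32-fold to 1.87-fold. The 18-nt member was higher by 1.56-fold to 6.23-fold, and the ratios did not follow the order of length.

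Lengths were therefore compared as such, which does not depend on the library total. The mean length of the member reads was 25.98 nt ± 0.67 (SD, n = 12), from 24.7 nt in SC12F to 27.6 nt in SC13M. These lengths cover listed sequences only, since the authors kept sequences found in a piRNA database. The study describes longer reads that share the 5′ end of a piRNA but are absent from that database. Such reads do not enter the values, so lengths above the longest member were not measured here. With limma over the 9 ends that had enough sequences (0.0% called in each comparison), the difference at the 16S start was 0.63 nt for males over females (SE 0.39, adjusted p = 0.473), 0.19 nt for SCs over PGCs (SE 0.39, adjusted p = 0.763) and 0.97 nt for E13.5 over E12.5 (adjusted p = 0.422 over the 3 days). With only the lengths listed in all 12 libraries the sex difference was -0.20 nt, and the cell type difference was -0.014 nt without SC13M and -3.96 percentage points as the share of 24 nt or more.

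The share of member reads of 29 nt or more, a cut chosen after the data were seen, was 34.6% in PGC11F, 33.5% in PGC12F, 41.5% in PGC13F, 39.1% in PGC11M, 33.9% in PGC12M and 41.6% in PGC13M. In SCs it was 36.3% in SC11F, 23.3% in SC12F, 39.5% in SC13F, 43.6% in SC11M, 35.5% in SC12M and 50.9% in SC13M. The 4 libraries of E13.5 lay above the 4 libraries of E12.5, and each library of E12.5 lay below its counterpart of E11.5. At how many other 5′ ends this order held was not counted. Males were higher in 6 of 6 pairs, by 0.0968 to 12.2 percentage points, but in the PGC pairs of E12.5 (0.40 points) and E13.5 (0.0968 points) the gap lay inside the counting intervals of the libraries. For the share of 24 nt or more, males were higher in 4 of 6 pairs, with differences from -12.6 to 9.30 points. The lowest of these was in the pair that holds PGC13F.

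By limma over the 5 ends that allowed the test, this share was 11.8 percentage points higher at E13.5 than at E12.5 (adjusted p = 0.0331 over the 3 days, 20.0% of the 5 ends called), a call that was lost without moderation of the variance (adjusted p = 0.0578). Without PGC13F the difference was 11.2 points (adjusted p = 0.112), and the call was lost in 10 of the 12 fits that left out 1 library, all but those without PGC12F or PGC13M. Males exceeded females by 5.99 points (SE 2.29, limma adjusted p = 0.135), and SCs exceeded PGCs by 0.80 points (adjusted p = 0.832). For the share of 24 nt or more, E13.5 was above E12.5 in 3 of 4 matched pairs, with differences from -1.86 to 12.3 points. The days then overlapped, with 41.7% to 54.2% at E12.5 and 50.3% to 64.9% at E13.5.

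Member reads were longer than those of 3 other 5′ ends chosen for comparison. Their mean length by library was 24.7 to 27.6 nt, against 22.0 to 23.99 nt for the 18 sequences that begin at the first base of tRNA-SerGCT (mt-Ts2), 16.5 to 19.1 nt for the 7 that begin where the 12S rRNA does (mt-Rnr1) and 20.0 to 23.7 nt for the 10 that begin at a single position of the reverse strand in the D-loop, the control region of the mtDNA. The share of reads of 29 nt or more was 23.3% to 50.9% for the members, and at most 13.6%, 12.0% and 15.99% for the other three ends. The ranges of the members and of these 3 ends did not overlap, over 12 libraries each or 11 for the 12S rRNA start, which was not listed in SC12F. Long reads were not particular to the 16S start, since another end within the 16S rRNA had a mean length of 27.8 to 33 nt and exceeded the members in each of the 8 libraries that list it. These are descriptions, since each end is a single locus, and they cover listed lengths only.

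Copies of mtDNA are also inserted in nuclear chromosomes (NUMTs), so each member was searched on both strands of the 21 nuclear chromosomes of GRCm39. Short sequences can also match by chance. The number of matches expected by chance was not computed, so a match is not shown to be a NUMT. The 8 members of 16 to 23 nt had nuclear matches with up to 1 mismatch, and the 12 members of 24 to 35 nt had none. The number of matching places fell from 57 for the 16-nt member to 21 at 17 nt, 8 at 18 nt, 5 at 19 to 22 nt and 2 at 23 nt. Exact matches were found for 7 members (16 to 22 nt), at 3 places for the 16-nt member and at 1 place for each of the longer ones.

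The 2 places that matched the 23-nt member with 1 mismatch were chr9:81938237-81938259 on the reverse strand, in an intron of Mei4, a gene needed for meiotic recombination, and chr14:20115047-20115069 on the reverse strand, in an intron of the long noncoding RNA gene Gm63405. Both genes lie on the forward strand, so the 2 matches are antisense to them. The place in Mei4 was also the one that held the 22-nt member without a mismatch. The members with a nuclear match held 52447 of the member reads (46.4%), and those without held 60667 reads (53.6%). With up to 2 mismatches allowed, 10 members matched, the longest being the 25-nt member at 1 place.

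All members share their first 16 bases, so whether a member has a nuclear match follows from its length alone. The class of 24 nt or more held 52.2% ± 5.90 of the member reads (SD, n = 12), from 41.7% in SC12F (95% Wilson interval 40.2% to 43.2%) to 64.9% in PGC13F (64.1% to 65.8%). In PGC13F, the 23-nt member was missing and the 24-nt member led, so this share compares different 3′ ends there, and without PGC13F the mean was 51.1%.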

How the data were processed

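Small RNA (below 100 bases, per the labels) of 12 fractions was sequenced, 1 library each. The authors trimmed adapters with Trim Galore 0.4.1, collapsed identical reads, dropped sequences under 10 CPM, aligned with Bowtie 1.3 (up to 1 mismatch) to mm39 and the mtDNA, and kept sequences also found in a piRNA database; the deposited values are raw read counts per sequence. Here sequences were placed on chrM of GRCm39 (GENCODE annotation), and rpm used the library totals given by the study (reads of sequences over 10 CPM). A missing sequence was 0 reads. Tests were edgeR 4.0.16 on counts per sequence and per 5′ end, and limma 3.58.1 on lengths, in an additive model of the 3 factors and Benjamini-Hochberg adjustment over all features tested. DESeq2 1.42.0 was an alternative. The edgeR and limma steps were tested on simulated data. R 4.3.3, Python 3.11.15, numpy 2.4.6, pandas 2.3.3 and scipy 1.17.1 were used. Sequences described in full are the 5 members with most reads, the shortest, the longest, and those at the limit of a nuclear match; others are marked. Members and lists were chosen with earlier results of these data known. With 1 library per condition, p-values measure the spread between libraries that differ in the other factors. Mito-piRNA reads per library ranged from 16061 to 59545, and Wilson intervals (95%) cover counting error only. Alternatives covered library sizes, filters, missing values, mismatches, matched pairs as blocks and leaving out each library.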

Additional observations from a re-analysis of the deposited data

Results flagged for a closer look

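Chance flags about 1 in 20 groups examined, and several libraries lay far from the rest of their group. The members took 43.1% of the mito-piRNA reads in SC11M, the farthest of the 6 SC libraries. Their mean length was 26.30 nt in PGC13M, above the other 5 PGC libraries, and 24.74 nt in SC12F, below the other 5 female libraries and the other 3 libraries of E12.5. The share of 24 nt or more was 64.9% in PGC13F, above the other 5 PGC libraries, and the share of 29 nt or more was 23.3% in SC12F, below the other 3 libraries of E12.5.

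The difference of SCs minus PGCs in summed level had opposite directions in the sexes, with a mean of -537 rpm over the 3 female pairs, all negative, and 152 rpm over the 3 male pairs, all positive. The difference between the sexes was not tested, and 1 of the female pairs holds PGC13F.

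Outside the exact matches, 9 sequences with 1 mismatch began at the same position and held 2261 reads (1.96% of all reads with this start). All 9 are mismatched at their last base. They were listed in 5 libraries, with 1289 reads in SC13M, 360 in PGC13F, 285 in SC11M, 241 in SC13F and 86 in PGC11M.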

How the results depend on the processing

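Between cell types, the count of called sequences was 0 with edgeR and became 1 with TMM factors, 2 with DESeq2's own size factors, 1 with DESeq2 and the study's totals and 2 with 1 mismatch allowed, and 0 to 1 when each library was left out. Only DESeq2 with its own size factors called a member, which was 1 (26 nt). As that member is listed in PGC libraries alone, the call restates where it is listed and gives no support for a difference.

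DESeq2's own size factors, computed from sequences within the mito-piRNA lists, turned the difference at the 16S start to 0.24 (cell type), -0.46 (sex) and -1.08 (E13.5 over E12.5) on the log2 scale, and the day difference of the 18-nt and 29-nt members to -0.37 and -0.23. The day difference of the 23-nt member, 0.26 in the edgeR fit, became -0.87 with the deposited sums as library sizes, -0.29 with TMM and -1.23 with DESeq2's own size factors, and -0.19 to 0.87 without single libraries. That of the 25-nt member, -0.27, ran from -0.67 to 0.35 without single libraries and was -1.77 under DESeq2's own size factors. The day differences therefore depend on the denominator. Under TMM the day difference at the 16S start was 0.23.

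For length, the cell type difference was -3.96 percentage points as the share of 24 nt or more, and -0.014 to 0.39 nt without single libraries. The sex difference was -0.20 nt with only the lengths listed in all 12 libraries. The share of 29 nt or more, added after the data were seen, differed by 11.8 points over days. Without moderation of the variance its adjusted p was 0.0578. Without single libraries it differed by 9.38 to 14.1 points over days (adjusted p 0.00389 to 0.112), by 4.37 to 7.53 points between sexes (past the threshold without PGC12F or PGC13M, adjusted p 0.0327 and 0.0258) and by -0.44 to 2.43 points between cell types.

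With only the lengths listed in all 12 libraries, the mean level was 899 rpm, the share of mito-piRNA reads 14.0%, the mean length 29.3 nt and the share of 24 nt or more 78.2%. In place of the latter, the share of 29 nt or more had a mean of 37.8%. With no mismatch allowed 7 members had a nuclear match, and with up to 2 mismatches 10. Pairs of matched libraries as blocks changed no call at the 16S start (cell type -0.22, sex 0.81, adjusted p = 0.409).

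The labels carry no replicate numbers to pair. The limit of 10 CPM hides members of low level, so lengths listed in few libraries cannot be compared.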
